A study of Mus musculus with 12 samples.

Results

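The markers of olfactory ensheathing glia described here are 8 genes, namely Sox10, S100b, Fabp7, Apod, Npy, Frzb, Foxd3 and Ednrb. They were picked by gene symbol from a list of known markers, out of 19938 gene symbols carried by probe sets with 1 symbol, and the rule itself uses no measured value. Each gene had 1 probe set, and all 8 passed the filter on low signal (a mean over 12 arrays above log2 5). That filter kept 28151 of 28944 probe sets, so passing it is no sign of expression. Sox10, Frzb, Foxd3 and Ednrb averaged 6.77 to 7.81, under the lowest array median of 7.84. The tissue was the whole main olfactory epithelium (MOE), freshly dissected from mice aged 6 months, and RNA was hybridised to whole-transcript arrays of Affymetrix, which probe exons along each transcript. In H2be-KO mice the coding sequence of H2be, a histone H2B gene, is replaced by Gap43-mCherry, a membrane-bound red fluorescent reporter, and the line was founded by crosses to C57Bl/6. WT mice have the intact gene. There were 6 arrays per genotype, each carrying RNA pooled from 2 mice, so the difference between individual mice was not measured. The sample labels give no sex, and a caption of the paper calls the 6-month H2be-KO mice of a microarray comparison male. Each genotype held equal numbers of arrays with and without signal of Y-linked genes, as given below.

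Ensheathing glia are derived from the neural crest and wrap the bundles of olfactory axons that run from the epithelium to the olfactory bulb. They lie in the lamina propria under the epithelium and in the outer layer of the bulb, and they share much of their programme with the Schwann cells of other peripheral nerves. Sox10 is the transcription factor that specifies crest-derived glia, and Foxd3 acts earlier in the crest. Ednrb is the receptor through which endothelins act on crest cells. S100b (a calcium-binding protein), Fabp7 (a fatty acid carrier) and Apod (a secreted lipocalin) are widely used glial markers, Frzb is a secreted antagonist of Wnt ligands, and Npy is a neuropeptide that ensheathing glia also make during development. None of these genes is made by ensheathing glia alone. In whole tissue a smaller number of glia and less RNA per glial cell cannot be told apart.

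Sequence upstream of the start site was available for 7 of the 8 genes, Sox10 being the exception. The 250 bases before the start are shown for 4 of them, since they include the marker that passed the unadjusted threshold between the genotypes (Fabp7), the pair with the closest array profiles (Apod and Frzb) and S100b, which resembled Fabp7 in 1 motif. All are from RefSeq on GRCm38.p6 and read 5′ to 3′ on the strand of the gene. Capitals mark CCAAT or its reverse complement ATTGG in Fabp7 and S100b, the SOX core ACAAAG in Apod, and the E box CAGCTG in Frzb. Fabp7 lies at chr10:57784673-57784922 on the plus strand and S100b at chr10:76253586-76253835 on the plus strand. Apod lies at chr16:31314809-31315058 on the minus strand and Frzb at chr2:80447397-80447646 on the minus strand.
Fabp7: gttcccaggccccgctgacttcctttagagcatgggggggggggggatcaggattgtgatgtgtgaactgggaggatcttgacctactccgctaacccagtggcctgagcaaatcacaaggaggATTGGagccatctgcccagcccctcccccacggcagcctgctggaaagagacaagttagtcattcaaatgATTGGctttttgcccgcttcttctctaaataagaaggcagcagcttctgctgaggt
S100b: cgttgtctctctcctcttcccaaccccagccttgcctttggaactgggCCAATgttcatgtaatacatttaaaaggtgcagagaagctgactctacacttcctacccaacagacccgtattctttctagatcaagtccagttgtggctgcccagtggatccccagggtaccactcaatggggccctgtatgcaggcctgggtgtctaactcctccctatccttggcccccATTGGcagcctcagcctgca
Apod: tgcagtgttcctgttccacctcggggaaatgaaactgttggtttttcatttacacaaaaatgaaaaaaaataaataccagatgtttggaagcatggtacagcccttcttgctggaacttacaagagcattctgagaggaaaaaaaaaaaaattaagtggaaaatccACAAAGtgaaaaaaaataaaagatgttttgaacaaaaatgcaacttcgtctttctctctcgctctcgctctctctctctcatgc
Frzb: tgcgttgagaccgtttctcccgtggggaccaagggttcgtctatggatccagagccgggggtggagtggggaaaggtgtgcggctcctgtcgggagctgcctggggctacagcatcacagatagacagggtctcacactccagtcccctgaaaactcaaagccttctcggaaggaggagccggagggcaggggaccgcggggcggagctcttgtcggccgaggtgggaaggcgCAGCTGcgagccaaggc

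Each motif was searched on both strands. CCAAT, a common promoter element, was found in 4 of the 7 windows (Npy, Fabp7, S100b and Ednrb) and in 33.8% of 32851 mouse windows of the same length. Fabp7, S100b and Ednrb each held it at 2 places, which in Fabp7 began 126 and 56 bases before the start. ACAAAG, a short core that SOX factors can bind, was found in Apod alone, beginning 84 bases before the start, and in 16.5% of all windows. A second SOX core, ACAATG, was in none of the 7 and in 10.7% of all windows. CAGCTG was in Frzb alone, beginning 17 bases before the start, and in 13% of all windows. The windows also differed in base composition. Apod was 36.4% G and C with 4 CpG sites, whereas Npy was 69.2% with 21 and Foxd3 65.6% with 21, against a median of 52.4% over all windows. A match in these letters is a description of sequence and not of binding.

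Levels are log2 signals of the deposited arrays. Because probes differ in brightness, levels of different genes were not compared as amounts of RNA. The array median and the signal of Mog, described below, are given beside weak markers only as a caution. On the 28151 probe sets above the filter, arrays correlated with each other at 0.951 to 0.985. The H2be probe set read 11.65 in H2be-KO and 11.89 in WT, and whether its probes lie within the replaced sequence was not given, so it does not check the genotype. Omp, the classical marker of mature olfactory neurons, averaged 12.90 in both genotypes. Y-linked genes split the arrays in a way the labels do not record. Their mean signal over 3 genes was 9.35 to 9.71 on replicates 4 to 6 of both genotypes and 1.61 to 2.28 on replicates 1 to 3, so that each genotype held 3 arrays of each kind. Mog, a myelin gene of the central nervous system that marks no cell of the epithelium, read 6.30 to 7.22. Whether the dissected tissue held central glia was not tested, and 1 probe set sets no background for other genes. A signal near 7 by itself was not taken as a sign of expression.

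The first comparison asked whether the markers differed between H2be-KO and WT. Fabp7 was the single marker of 8 that passed an unadjusted p of 0.05, and it was higher in H2be-KO. No marker was lower. Over all 28151 probe sets, the same test called 5.55% in either direction, 3.78% higher and 1.77% lower. A single call among 8 markers is too few to set apart from these shares. The split over all probe sets moved with the scaling of the arrays, from 1065 higher and 498 lower to 827 and 899 with quantile normalisation and to 815 and 699 with median centring. No marker and no probe set (0%) passed after Benjamini-Hochberg adjustment, the smallest adjusted p from limma being 0.572. The exact permutation test put 1693 probe sets (6.01%) under an unadjusted p of 0.05, again with Fabp7 as the single marker. The difference was positive for 7 of the 8 markers with a median of 0.09 on the log2 scale. Over all probe sets the median was 0.02 and 56.2% were positive.

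Fabp7, the fatty acid carrier of radial and ensheathing glia, was 10.46 to 10.79 on H2be-KO arrays with a median of 10.71. It was 10.20 to 10.71 on WT arrays with a median of 10.41. The groups overlapped, although all 6 H2be-KO arrays lay above the WT median, 3 lay above every WT array and 4 WT arrays lay below every H2be-KO array. Mean Fabp7 signal was 10.67 ± 0.12 on H2be-KO arrays and 10.44 ± 0.18 on WT arrays (SD, n = 6 arrays each). The difference of 0.22 (SE 0.10) corresponds to 1.17-fold, with a 95% interval of 1.01-fold to 1.34-fold. Its unadjusted limma p was 0.0354, the exact two-sided permutation p was 0.0303 and the adjusted p from limma over all probe sets was 0.753. The call was lost when arrays were quantile normalised again (0.18) or centred on their medians (0.21). It was also lost when any 1 of 8 arrays was left out, namely H2be-KO replicate 1, 3, 5 or 6 or WT replicate 2, 3, 4 or 5, the difference then being 0.17 to 0.22. Fibroblast markers, whose summed signal over 6 genes was 63.75 to 64.76 in H2be-KO and 61.74 to 64.35 in WT, were higher on average in H2be-KO for all 6 genes, 1 of which was called (Lum, 0.24). Their part in the Fabp7 difference was not tested.

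**Figure D1:**
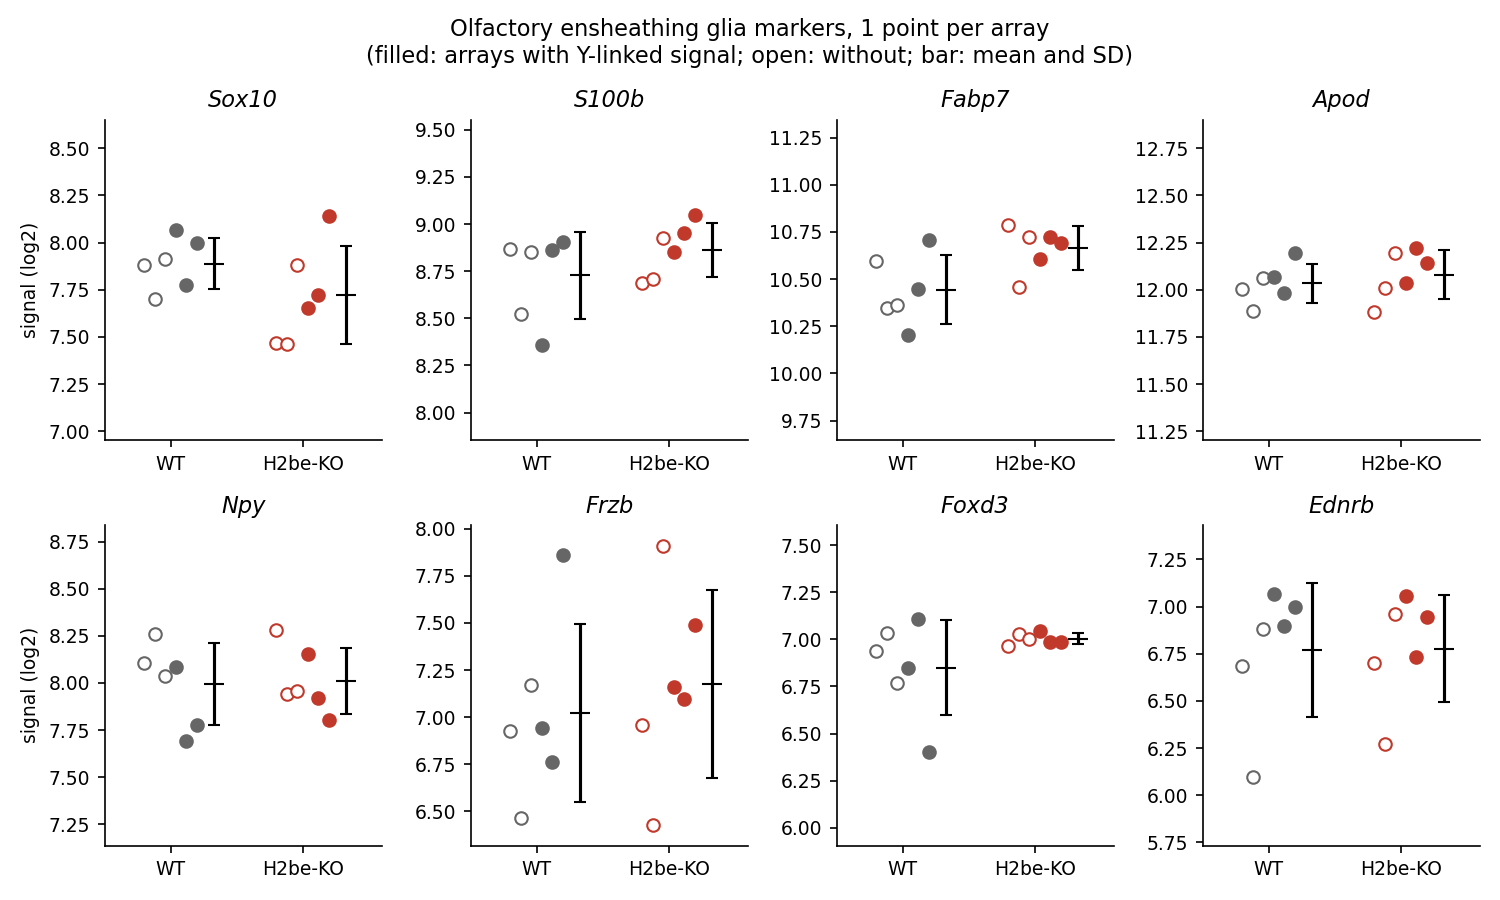
Log2 signal of the 8 ensheathing glia markers, with arrays as points, WT in grey and H2be-KO in red, and a bar at the right for the mean and SD of each group of 6. All panels span the same log2 range, and filled points are arrays with Y-linked signal. Fabp7 shows 3 H2be-KO arrays above every WT array, Foxd3 is tightly grouped in H2be-KO and Frzb is spread widely in both genotypes.

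S100b, the calcium-binding protein, was 8.69 to 9.05 in H2be-KO with a median of 8.89 and 8.36 to 8.91 in WT with a median of 8.86. The medians were thus nearly equal, and 2 WT arrays, replicates 2 and 4, at 8.52 and 8.36, were the lowest of all 12. The difference was 0.13 (SE 0.11, exact permutation p = 0.253), and 0.06 without WT replicate 4. Apod, the lipocalin, was 11.88 to 12.22 in H2be-KO and 11.89 to 12.20 in WT. The ranges almost coincided, and the difference was 0.05 (SE 0.08, exact permutation p = 0.504), with a 95% interval of -0.13 to 0.22. Leaving out single arrays moved it between 0.02 (WT replicate 2) and 0.09 (H2be-KO replicate 1).

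Of the crest transcription factors, Sox10 was the marker with a negative difference. It was 7.46 to 8.14 in H2be-KO with a median of 7.69 and 7.70 to 8.06 in WT with a median of 7.90. The groups overlapped, but 3 H2be-KO arrays, replicates 1, 2 and 4, were under the lowest WT array, and the highest array was H2be-KO replicate 6. The difference was -0.17 (SE 0.12, exact permutation p = 0.184), with a 95% interval of -0.41 to 0.08. Without H2be-KO replicate 6 it was -0.25 and passed the unadjusted threshold of limma.

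Foxd3 differed in its spread, at signals that all lay within the range of Mog (6.30 to 7.22). In H2be-KO all 6 arrays fell between 6.97 and 7.05 (SD 0.03), whereas WT arrays were 6.40 to 7.11 with a median of 6.89 (SD 0.25). All H2be-KO arrays lay above the WT median and 4 WT arrays lay below every H2be-KO array, the lowest being WT replicate 6. The difference in means was 0.15 (SE 0.10, exact permutation p = 0.154), and the difference in spread was not tested. Without WT replicate 6 the difference in means was 0.06, as it was with array weights.

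Frzb, the Wnt antagonist, varied most. Its signal was 6.43 to 7.91 in H2be-KO with a median of 7.13 and 6.47 to 7.86 in WT with a median of 6.94. The highest arrays were H2be-KO replicate 3 and WT replicate 6 and the lowest were replicate 2 of each genotype, so that the spread lay within the genotypes and not between them. The difference was 0.15 (SE 0.24, exact permutation p = 0.602), with a 95% interval of -0.36 to 0.66. Single arrays moved it widely. Leaving out 1 of the H2be-KO arrays gave 0.30 for replicate 2, 0.0047 for replicate 3 and 0.09 for replicate 6, and leaving out 1 of the WT arrays gave 0.04 for replicate 2, 0.10 for replicate 5 and 0.32 for replicate 6. The SD over all 12 arrays was 0.47, larger than that of 97.5% of probe sets tested, against a median SD of 0.20. Ednrb also varied widely, with an SD of 0.31 that was larger than that of 87.1% of probe sets. Apod was at the other end, with an SD of 0.11 that was larger than that of 7.97% of probe sets.

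Ednrb, the endothelin receptor, was 6.27 to 7.05 in H2be-KO with a median of 6.84 and 6.10 to 7.07 in WT with a median of 6.89. No array read higher for Ednrb than the highest Mog signal (7.22). Both groups covered the same range, and the difference was 0.01 (SE 0.16, exact permutation p = 0.968), with a 95% interval of -0.34 to 0.36. Arrays with Y-linked signal read 6.73 to 7.07 for Ednrb and the others 6.10 to 6.96, and these ranges overlapped. Npy was 7.80 to 8.28 in H2be-KO with a median of 7.95 and 7.69 to 8.26 in WT with a median of 8.06. Its difference was 0.02 (SE 0.11, exact permutation p = 0.892), and its sign, like those of Apod and Ednrb, turned under another scaling of the arrays. A negative sign for Apod and Npy came with quantile normalisation and for Ednrb with median centring.

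**Figure D2:**
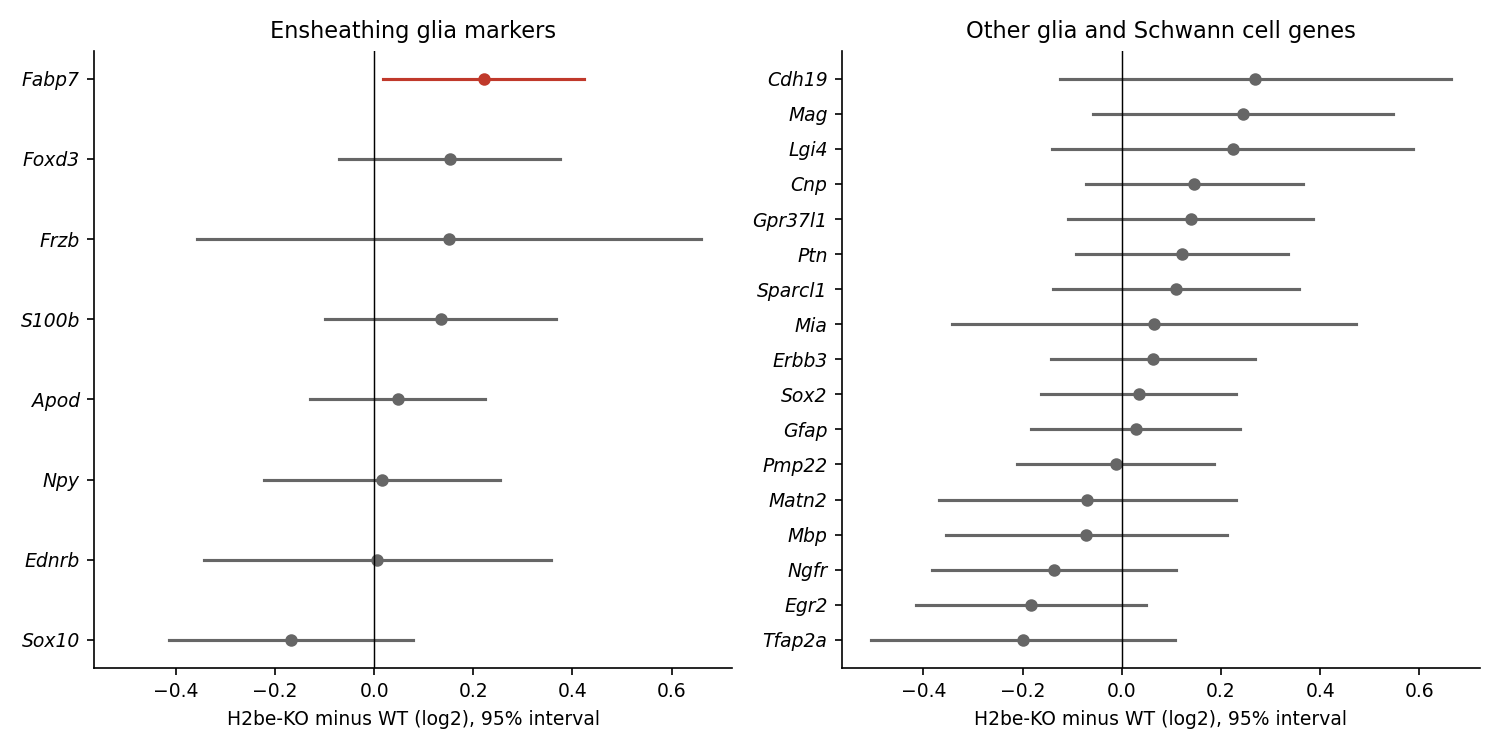
Difference between H2be-KO and WT (log2, mean of 6 arrays less mean of 6 arrays) with its 95% interval from limma, for the 8 markers (left) and for 17 other genes of glia and Schwann cells (right). Red marks an unadjusted p under 0.05, which Fabp7 alone reached, and every other interval includes 0.

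The markers were set beside genes of the same pathways and cell class. Of 70 such genes 66 were measured, with 71 probe sets tested, of which 2 were higher, 1 was lower and 68 were neither at an unadjusted limma p of 0.05. This compares with 5.55% called in the whole table, and 0 passed after adjustment. The list of other genes of glia and Schwann cells held 17 measured genes, and 0 of them were called in either direction, with a median difference of 0.06. The most positive difference of that list was that of Cdh19, a cadherin of crest-derived glia (0.27, SE 0.18), and the most negative that of Tfap2a, a crest transcription factor (-0.20, SE 0.14). The brightest genes of that list, Sox2 and Ptn, differed by 0.03 and 0.12. Sox2, which is also made by sustentacular and basal cells of the epithelium, turned to -0.0033 with quantile normalisation.

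The called genes were relatives of Frzb and of Fabp7. Of 8 genes for secreted Wnt antagonists related to Frzb, 1 was higher and 1 was lower. Sfrp4 was 10.32 to 10.64 in H2be-KO with a median of 10.38 and reached at most 10.41 in WT, with a median of 10.24. The groups overlapped, with 2 H2be-KO arrays above every WT array, and the difference was 0.20 (SE 0.09, exact permutation p = 0.0303). Sfrp5 ran the other way, at 6.05 to 6.92 in H2be-KO with a median of 6.50 and 6.47 to 7.14 in WT with a median of 7.01. Here 3 H2be-KO arrays were under the lowest WT array, and the difference was -0.44 (SE 0.14, exact permutation p = 0.0195). The adjusted p from limma was 0.753 for both. Sfrp5 kept its call in every alternative run, whereas Sfrp4 lost it with quantile normalisation (0.15), with median centring (0.18) and with any 1 of 7 arrays left out, namely H2be-KO replicate 1, 2 or 5 or WT replicate 1, 3, 4 or 5 (0.15 to 0.21). Sfrp2, the brightest relative, differed by 0.04 (SE 0.10).

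Among 7 relatives and partners of Fabp7 and Apod, 1 of 9 probe sets was called. This was the dimmer of 2 probe sets for Fabp5, another fatty acid carrier, at 0.28 (SE 0.13, exact permutation p = 0.0498). For the other, brighter one the difference was -0.01 (SE 0.12), so that both probe sets disagreed. The call on the dimmer one was lost with either rescaling (0.29 and 0.26) and with any 1 of 8 arrays left out, namely H2be-KO replicate 1, 4, 5 or 6 or WT replicate 2, 3, 4 or 5 (0.19 to 0.29). Clu, a secreted chaperone, differed by 0.11 (SE 0.08) and Bsg, a membrane protein reported as an Apod receptor, by -0.03 (SE 0.07).

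No partner of the other markers was called. Among 5 measured genes of endothelin signalling, Ece1, which cleaves endothelin precursors, was 10.58 to 10.83 in H2be-KO and 10.77 to 11.07 in WT, with 3 H2be-KO arrays below every WT array. Its difference was -0.13 (SE 0.08), and the exact permutation p of 0.0455 stood beside a limma p of 0.113. With quantile normalisation it was -0.18 and was called by limma at the unadjusted threshold. Ece2 differed by -0.19 (SE 0.12), and passed the unadjusted threshold when WT replicate 6 was left out (-0.29) or arrays were weighted (-0.27). It was -0.11 and not called when its 2 probe sets were averaged. The genes for the ligands Edn1, Edn2 and Edn3 differed by -0.08, 0.004 and -0.01. For Npy, the processing enzymes Cpe and Pam differed by 0.09 and -0.07, and 0 of 8 genes were called. For Sox10 and Foxd3, Sox9 and Zic1 differed by -0.26 (SE 0.17) and -0.02 (SE 0.08), with 0 of 7 probe sets called. Sox9 passed the unadjusted threshold without H2be-KO replicate 3 (-0.37) or WT replicate 2 (-0.36), and its difference shrank to -0.14 without H2be-KO replicate 2. For S100b, S100a1 and S100a11 differed by -0.02 and -0.08, with 0 of 9 called. In neuregulin signalling, which guides Schwann cell growth, Nrg1 and its receptor subunit Erbb2 differed by -0.03 and -0.12, and 0 of 7 genes were called.

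The second question was whether the markers rose and fell together over the 12 arrays. They did so only in part. Of 28 pairs 15 correlated positively and 13 negatively, and the median Pearson r was 0.19 (jackknife SE 0.25). The lowest r was -0.60 (Apod and Npy) and the highest 0.76 (Apod and Frzb). With permutation tests, 6 pairs had an unadjusted p under 0.05 by r and 7 by Spearman's rho, and 0 remained after Benjamini-Hochberg adjustment over the 28. All points share the array and its normalisation.

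Sox10, Apod, Frzb and Ednrb were positively correlated in all 6 of their pairs over the 12 arrays, the lowest r being 0.547 (Sox10 and Apod). This group was picked after the correlations were seen and is a description. On arrays with Y-linked signal 1 of the pairs turned, Apod with Ednrb having r = 0.548 over all arrays, -0.443 on those arrays and 0.653 on the others. Apod and Frzb had r = 0.757 and rho = 0.692 (permutation p = 0.0044 and 0.0153, adjusted 0.109 and 0.194). Without the 2 arrays farthest from the median of Apod, r was 0.929. It was 0.590 within H2be-KO and 0.963 within WT (exact permutation p = 0.221 and 0.00417), and 0.662 and 0.787 on arrays with and without Y-linked signal. The relation was thus positive in every subset.

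Frzb and Ednrb had r = 0.706 and rho = 0.622 (permutation p = 0.0117 and 0.0343, adjusted 0.109 and 0.194), and without the 2 arrays farthest from the median of Frzb r was 0.781. On arrays with Y-linked signal r was 0.170 and on the others 0.886, so the relation did not hold within the former. Both genes were lowest on replicate 2 of each genotype, and these arrays carry no Y-linked signal. S100b and Fabp7 had r = 0.703 and rho = 0.587 (permutation p = 0.00913 and 0.0492, adjusted 0.109 and 0.194). That r rested on WT replicates 2 and 4, where both genes were low, and was 0.226 without them. It was 0.916 on arrays with Y-linked signal and 0.373 on the others. Sox10 with Ednrb had r = 0.578 and Sox10 with Frzb 0.568 (permutation p = 0.0472 and 0.0542, adjusted 0.158 for both).

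Npy and Foxd3 stood apart from the other markers. Each correlated positively with just 1 of the other 7, namely with each other (r = 0.213, permutation p = 0.533). Npy had r = -0.602 with Apod and -0.570 with S100b (permutation p = 0.0390 and 0.0512, adjusted 0.158 for both). Foxd3 had r = -0.525 with Frzb (permutation p = 0.0827, adjusted 0.178), which was -0.951 within WT and -0.218 within H2be-KO (exact permutation p = 0.00972 and 0.696). The WT array lowest in Foxd3, replicate 6, was the highest in Frzb among WT arrays.

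**Figure D3:**
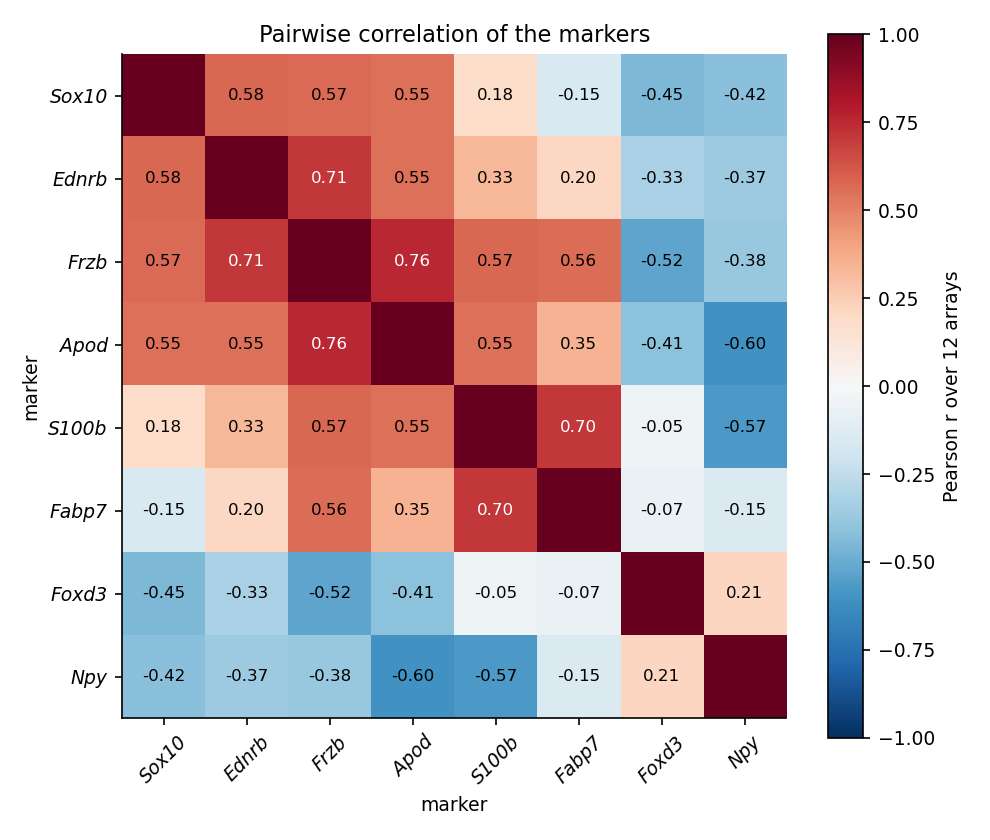
Pearson r over 12 arrays for each of the 28 pairs of markers, on a colour scale from -1 (blue) to 1 (red), with the value printed in each cell. Sox10, Ednrb, Frzb and Apod form a positive block at the upper left, and Foxd3 and Npy at the lower right are negative with all markers but each other.

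The markers were next set against genes that the rule did not use. For the 17 other genes of glia and Schwann cells, z scores over the arrays were averaged to give 1 value per array. Frzb followed this value closely, at r = 0.930 and rho = 0.923 (permutation p = 2e-05 and 6e-05). After adjustment over all 64 relations between the 8 markers and 8 gene lists these were 0.00128 and 0.00384. Without the 2 arrays farthest from the median, r was 0.917. It was 0.962 within H2be-KO, 0.899 within WT, 0.863 on arrays with Y-linked signal and 0.958 on those without. Ednrb had r = 0.841 with the same value (permutation p = 5e-04, adjusted 0.0143), with rho = 0.734 (adjusted 0.117), and r was 0.469 on arrays with Y-linked signal and 0.964 on the others. Apod had r = 0.732 and Sox10 0.626 (permutation p = 0.00667 and 0.0296, adjusted 0.0712 and 0.197).

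Gene by gene, Frzb correlated positively with 14 of the 17 with a median r of 0.646, Apod with 14 (0.506), Sox10 with 13 (0.390) and Ednrb with 12 (0.610). Fabp7 and S100b each did so with 13, at medians of 0.358 and 0.288. Npy did so with 6 (-0.296) and Foxd3 with 3 (-0.259). For comparison, the median r of a marker with all probe sets tested lay between -0.087 and 0.030. The spread around it was wide, with quartiles of -0.48 and 0.43 for Frzb. An r beyond 0.7 in either direction was reached by 15.0% of all probe sets with Frzb and 15.0% with Apod. The share was 5.08% with Ednrb and 2.48% with Sox10. High values with single genes were thus not particular to glial genes. For Frzb the closest single genes were Sparcl1, a secreted matrix protein, at 0.906 and Mia, a secreted protein of cartilage, at 0.878, and for Ednrb Gpr37l1, a glial receptor, at 0.884. Ngfr, the low-affinity neurotrophin receptor of immature Schwann cells and ensheathing glia, ran against Frzb at -0.916. These correlations with single genes are descriptions over 12 shared arrays.

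The lists of markers of other cell types were averaged as z scores in the same way. Those of endothelium and sustentacular cells correlated after adjustment with at least 1 ensheathing glia marker, by r or by rho. The other 5 averages correlated with none after adjustment, which does not cover their single genes. In the list of cartilage, bone and tooth, the enamel gene Amelx was 11.87 and 11.66 on H2be-KO replicates 1 and 6 and at most 6.03 in WT. Acan, a cartilage gene of that list, was 5.13 to 8.06 in H2be-KO and 5.04 to 8.15 in WT. It was lowest on replicate 2 of each genotype, as were Sox10, Frzb and Ednrb, whereas Apod was lowest on replicate 1 in H2be-KO. The average of the list joins Acan with Amelx and so does not stand for Acan. A relation of Acan itself to the markers was not tested. Ednrb had r = 0.897 and rho = 0.902 with 6 endothelial genes (permutation p = 0.00067 and 0.00016, adjusted 0.0143 and 0.00512), and endothelial cells also make Ednrb. Within arrays with Y-linked signal that r was 0.547 and within the others 0.866. Frzb had r = 0.817 and rho = 0.818 with 5 sustentacular genes (permutation p = 0.00095 and 0.0018, adjusted 0.0152 and 0.0288), and S100b had r = 0.713 and rho = 0.839 with them (permutation p = 0.0132 and 0.0012, adjusted 0.106 and 0.0256). Summed over its genes, the endothelial list ranged from 41.89 to 45.10 in H2be-KO and from 42.67 to 45.18 in WT, and the sustentacular list from 56.50 to 58.07 and from 56.43 to 57.05. In both lists 0 genes had a mean at or under log2 5. The part of these cell types in the marker correlations was not tested.

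**Figure D4:**
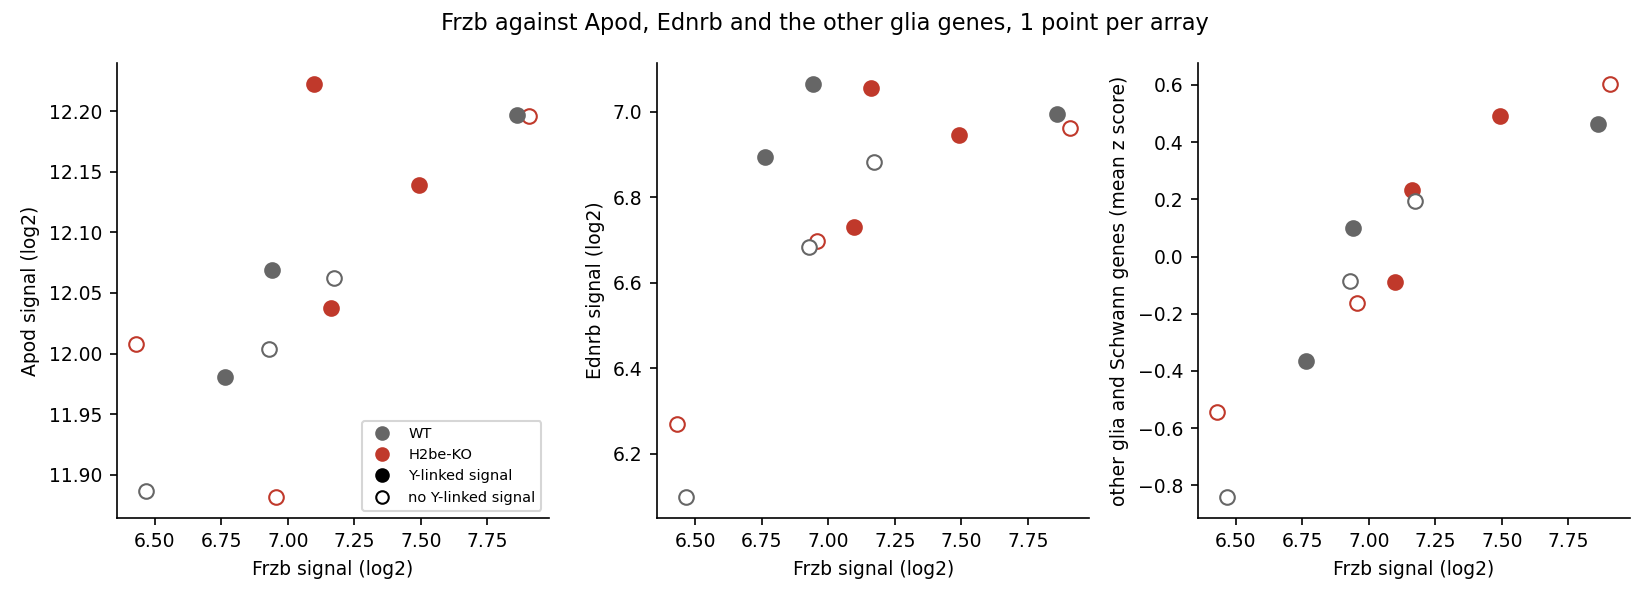
Frzb signal (log2) on each of 12 arrays against Apod (left), Ednrb (middle) and the mean z score of 17 other glia and Schwann cell genes (right), with WT in grey, H2be-KO in red and arrays with Y-linked signal filled. The right panel shows the closest relation (r = 0.930), and in the middle panel the filled points (r = 0.170) show no such relation as the open ones (r = 0.886).

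A value per array was also taken as the mean z score of the 8 markers. It was lowest on replicate 2 of WT (-0.76) and of H2be-KO (-0.73) and highest on replicates 3 and 6 of H2be-KO (0.70 and 0.62). H2be-KO arrays averaged 0.17 ± 0.54 and WT arrays -0.17 ± 0.34 (SD, n = 6 arrays each), so the spread within each genotype was as large as the distance between them. The 19670 probe sets eligible for comparison had 1 gene symbol, and the 8 markers were left out. Of these, Mogat1 (r = 0.956), Olfr20 (0.944) and Jam2 (0.934), an endothelial junction gene, were most like the mean z score over the 12 arrays. They were followed by Tmem154, Anxa1, Ccl9, Bcl2l13, Sparcl1, Socs2 and Atp8a1, at 0.932 down to 0.901. Sparcl1 (0.904) was the single gene of the glia and Schwann list among these 10. Cela1 (-0.959), Agmat (-0.956), Inpp5j, Tnfsf11 and Cdk5r1 (-0.919) were most opposed.

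For single markers, the closest profiles were those of Uck2, Dnah3 and Scnn1b for Sox10 (r from 0.928 to 0.899) and of Suclg2, Kbtbd2 and Nabp1 for S100b (0.961 to 0.950). They were Blzf1, Bccip and Olfr1079 for Fabp7 (0.934 to 0.927) and Nup98, Spata13 and Iars2 for Apod (0.967 to 0.952). For Npy they were Nedd8, Med9 and Klhl41 (0.910 to 0.878), for Frzb Dnah3, Terf2 and Pdcd7 (0.949 to 0.938), and for Foxd3 Cbln2, Olfr700 and Hrh1 (0.952 to 0.925). Dnah3 is listed for Sox10 and Frzb through different probe sets. Ednrb was most like Pglyrp1 (0.967), a neutrophil granule protein, Chil4 (0.957), a secreted chitinase-like protein, and Arhgef33 (0.949). Chil4 itself ranged from 6.78 to 12.32 over the arrays. The markers themselves were left out of the candidates. None of these closest genes was one of the 17 other glial genes. These profiles were picked from 19670 candidates over 12 arrays, and none was tested.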

How the data were processed

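Total RNA from whole MOE was measured on 12 Affymetrix Mouse Gene 1.0 ST arrays, 6 per genotype, with groups taken from the sample titles. Per the study's methods, the authors summarised the probes by IterPLIER and normalised the arrays by sketch-quantile in Affymetrix Expression Console, and deposited log2 signals for 35556 probe sets. The sources used here give no version of it. Normalisation across arrays removes a change common to most transcripts, and the number of arrays limits the precision. Nothing in the labels says that arrays of a genotype came from separate litters or days, so p-values measure the spread between these RNA pools.

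Of the probe sets, 6612 were controls and were left out. Of the 28944 others, 21789 had 1 symbol in the platform annotation, 1621 several and 5534 none, and genes were named only from the first kind. The 28151 with a mean above log2 5 were fitted with genotype as the only term (lmFit and eBayes of limma 3.58.1 in R 4.3.3) and adjusted by the Benjamini-Hochberg method. The model was tested on simulated data. The call rule was an unadjusted p under 0.05, which the study also used. Exact permutation tests took all choices of 6 of 12 arrays, correlations used 100000 permutations over 12 arrays and all permutations within a genotype, and all tests were two-sided.

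The members and the gene lists were chosen with earlier results of these data known. All members are named, and from each related list the called genes and the 2 brightest, with the 10 most and 5 least alike profiles over the members and 3 for each. Other genes (Edn1, Edn2, Edn3, Cdh19, Tfap2a, Mia, Ngfr, Lum, Omp, Mog) were named after their values were seen. Some genes of these lists are not reported here. Alternatives covered the filter, scaling, covariates, weights, moderation and each array left out. Removing the Y-linked mean or the array mean from the marker correlations was chosen after seeing the data.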

Additional observations from a re-analysis of the deposited data

Results flagged for a closer look

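Of 52 groups of 6 arrays checked, 2 held an array set apart from the other 5 beyond the limit of Dixon's test. Chance alone flags about 1 in 20 groups. Zic1, a transcription factor listed with Sox10 and Foxd3, was 8.17 on H2be-KO replicate 6 and 8.31 to 8.38 on the other H2be-KO arrays. Ece2, an endothelin-converting enzyme, was 7.32 on WT replicate 6 and 7.86 to 7.95 on the other WT arrays. None of the 8 markers held such an array.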

How the results depend on the processing

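The count of 1 marker called fell to 0 with quantile normalisation, with median centring and with H2be-KO replicates 1 and 6 left out together, those replicates being high in the enamel gene Amelx, and it ranged from 0 to 1 with single arrays left out. Without H2be-KO replicate 6 Fabp7 was lost and Sox10 gained. The count of 3 related probe sets was 1 with median centring, 6 with the replicate block, which also called Sox9 (-0.26), and 8 with array weights. It ranged from 1 (without H2be-KO replicate 5 or WT replicate 5) to 7 (without WT replicate 6). Signs turned for small differences. With quantile normalisation Apod was -0.0016, Npy -0.0014 and Sox2 -0.0033, and with median centring Ednrb was -0.0074. With array weights Npy was -0.024 and S100a1 0.0014. Without H2be-KO replicates 1 and 6 Npy was -0.0012, Ednrb -0.016 and Zic1 0.0149. With single arrays left out Npy ranged from -0.044 to 0.069, Ednrb from -0.13 to 0.11 and Zic1 from -0.065 to 0.0096. Sfrp2 ranged from -0.011 to 0.097, S100a1 from -0.066 to 0.0082 and Nrg1 from -0.082 to 0.039. The causes were not tested. The median pairwise r of 0.19 was 0.03 to 0.35 over all alternatives, which covers values within its jackknife error.

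Over all probe sets, higher and lower calls numbered 1065 and 498, 2039 and 951 with the replicate block, and 2694 and 1405 with array weights. With single arrays left out the higher calls ranged from 513 (without H2be-KO replicate 5) to 2265 (without WT replicate 6) and the lower ones from 313 to 1552. Arrays of the same number correlated in their deviations at 0.025 to 0.592, under 0.1 for replicates 1 and 5. Of the 6 numbers, 4 correlated best with their own, so arrays of the same number were alike in part. The labels do not name pairs, and the main test took no account of the numbers. With the replicate block the members called stayed at 1, and the unadjusted limma p was 0.0193 for Fabp7 and 0.0975 for Sox10. With 6 arrays per genotype and a median SE of 0.11, even differences larger than this SE, such as -0.17 for Sox10, were not told from 0.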
